A study of Sus scrofa with 9 samples.

Results

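Sulforaphane and follicle-stimulating hormone (FSH) were compared directly in primary granulosa cells of the pig ovary, with 3 RNA-seq libraries for each treatment. These 6 libraries, of 9 in the series, were chosen by their treatment label, and a gene was tested if it reached 1 FPKM in 3 or more of all 9 libraries, which left 919 of 1081 deposited rows. FPKM is the number of fragments per kilobase of transcript, scaled to library depth. All groups were wild-type primary cells from ovary: the sulforaphane group, the FSH group, and 3 control libraries whose levels are given beside the others. Dose, duration and animal age are not stated in the labels, nor is the origin of replicates in separate cultures or animals, so the p-values measure only the spread between these samples.

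Granulosa cells are the somatic cells that surround the oocyte, convert androgens to oestradiol and release progesterone once the follicle luteinises. FSH acts on them through a G protein-coupled receptor that raises cyclic AMP (cAMP) and activates protein kinase A, and in the follicle it drives growth, steroid synthesis and later the receptor for luteinising hormone. Sulforaphane is an isothiocyanate from cruciferous vegetables. It modifies the sensor protein KEAP1, which frees the transcription factor NRF2 to bind the antioxidant response elements of genes for glutathione synthesis, quinone reduction and haem breakdown.

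The recovered depth was 16.6 to 22.3 in units of 1e6 fragments per library, and the deposited rows held between 1217490 and 1756337 counts, or 6.73% to 8.38% of that depth. The sources used here do not state how these rows were selected. For all 66 genes named by rule the fitted level differed from control under both treatments, including those chosen for similar levels between treatments. Single libraries could still overlap, as FSH and control libraries did for SMAD9 and BST2. The smallest differences from control were 1.309-fold with sulforaphane (ANXA6) and 1.303-fold with FSH (SMAD9). The table may thus hold few genes near their control level, so counts and percentages of genes describe the table alone. Of the granulosa markers 6 of 16 were present (AMHR2, INHBA, FST, HSD17B1, KITLG and CYP11A1). Their mean log2(FPKM + 1) was 3.43 to 3.65 with sulforaphane, 4.71 to 4.78 with FSH and 3.86 to 3.94 in controls, and several of them answer to FSH. No marker listed for leukocytes, oocytes or erythroid cells was analysed here. Of 9 smooth muscle or pericyte markers 5 were present, with a mean of 3.99 to 4.09 with sulforaphane, 4.67 to 4.82 with FSH and 5.76 to 5.89 in controls. Surface epithelium markers (3 of 8) were at 2.40 to 2.57, 3.13 to 3.24 and 3.70 to 3.91, and stromal fibroblast markers (3 of 9) at 3.57 to 3.80, 3.59 to 3.77 and 4.10 to 4.21. The theca (3 of 9) and luteal (3 of 8) markers present share CYP11A1 and LHCGR with the FSH-responsive genes, and of 9 endothelial markers TIE1 and KDR were present. The part of other cell types in the results below was not tested. In bulk RNA fewer cells of one type and less RNA per cell cannot be told apart.

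The treatments differed at 512 of the 919 tested genes (55.7%) by edgeR's quasi-likelihood test at a Benjamini-Hochberg adjusted p under 0.05. With sulforaphane 119 genes (12.9%) were higher than with FSH and 393 (42.8%) were lower. A difference of at least 2-fold was found for 46 of the higher and 254 of the lower genes, and one of at least 8-fold for 7 and 20. The sulforaphane and FSH libraries did not overlap in FPKM at 546 genes (59.4%). Among the genes named by rule, the highest log2 fold changes were those of HMOX1 (3.97), IRAK2 (3.48) and ZFAND2A (3.47). The lowest were those of CTSL (-8.34), CXCL12 (-5.40), which passed the filter only through FSH, and IGFBP4 (-5.26).

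The split between higher and lower depended on how libraries were scaled. With the recovered depth the median over the tested genes was a log2 fold change of -0.18, whereas TMM factors put it at 0.12 and median-ratio factors at 0.19. TMM factors gave 320 genes higher and 327 lower, and median-ratio factors gave 388 higher and 315 lower. The table's own column sums gave 226 higher and 350 lower. Under all 4 scalings 434 genes were called in the same direction, 119 higher and 315 lower, so every gene called higher by depth stayed so. SPARC, a matrix glycoprotein, was the 1 gene called in opposite directions, lower by depth and higher by median-ratio factors. Small differences are therefore read below against that shift, and counts within gene lists against the 12.9% higher and 42.8% lower over all tested genes.

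**Figure D1:**
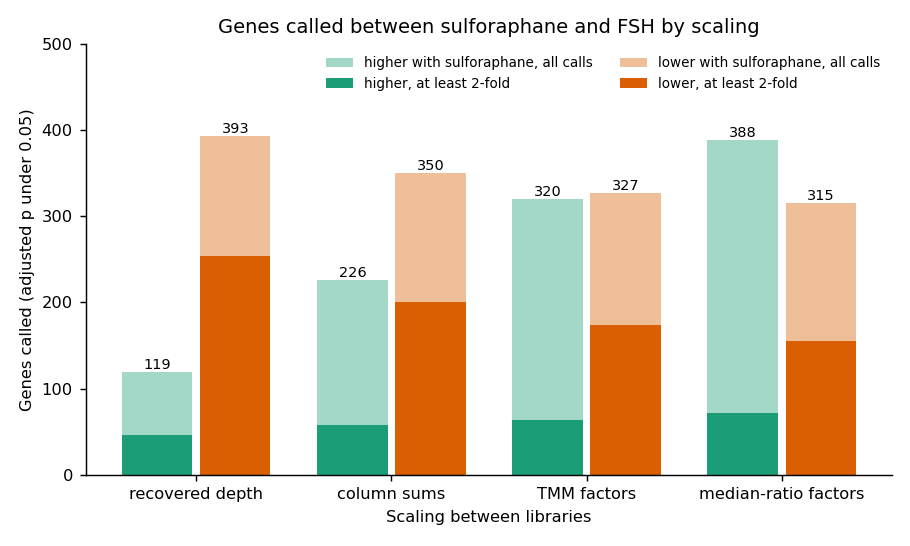
Number of genes called higher (green) or lower (orange) with sulforaphane than with FSH under 4 ways of scaling the libraries; pale bars count all calls and dark bars those of at least 2-fold. Genes called higher number 119 with the recovered depth and 388 with median-ratio factors, while genes called lower number 393 and 315.

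**Figure D2:**
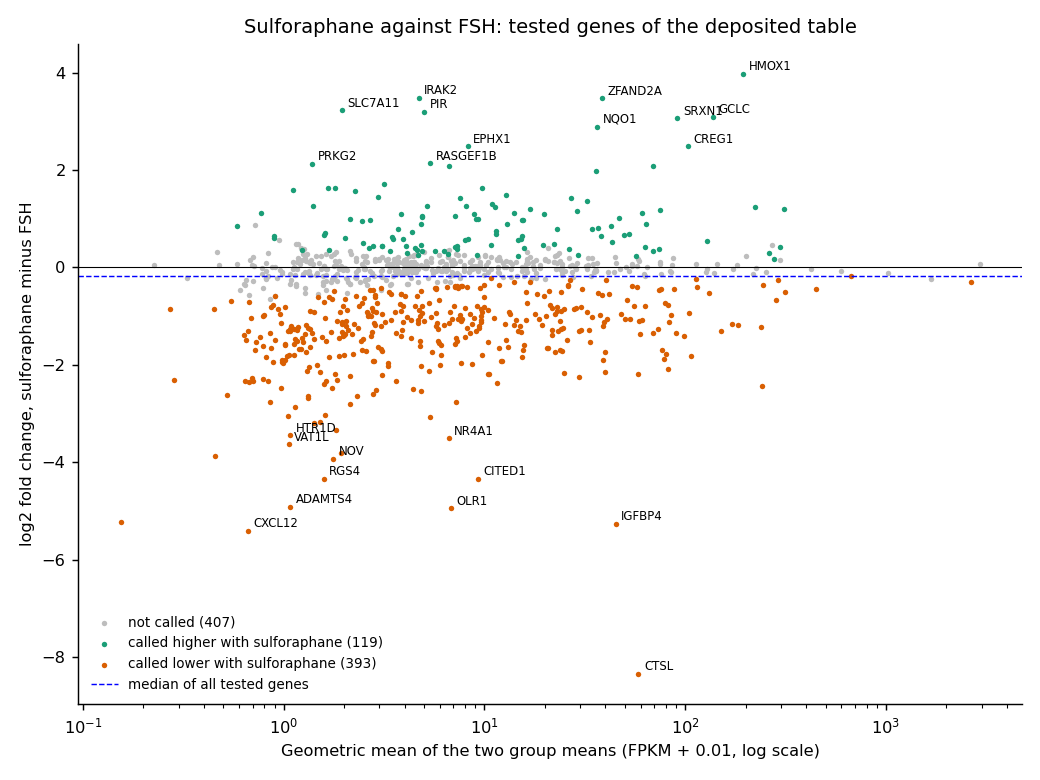
Log2 fold change of sulforaphane over FSH (vertical axis) against the level of each tested gene (horizontal axis, log scale), 1 point per gene, with the genes of the largest differences in each direction labelled. Among labelled genes HMOX1 stands highest at 3.97 and CTSL lowest at -8.34.

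The libraries of the sulforaphane group varied more than the others. Over 709 genes with at least 1 FPKM in every library, the median SD of log2 FPKM was 0.196 with sulforaphane, 0.073 with FSH and 0.095 in controls. Sulforaphane replicate 3 was the farthest from its group mean in 57.3% of these genes. It stood at least 1.5-fold outside both other sulforaphane libraries at 60 of 694 genes, above them at 50 and below at 10. Below them were HMOX1 and LIF, the latter at 1.72 against 4.44 and 4.51 FPKM, and above them was PRKG2. Without this library 593 genes were called, 134 higher and 459 lower.

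**Figure D3:**
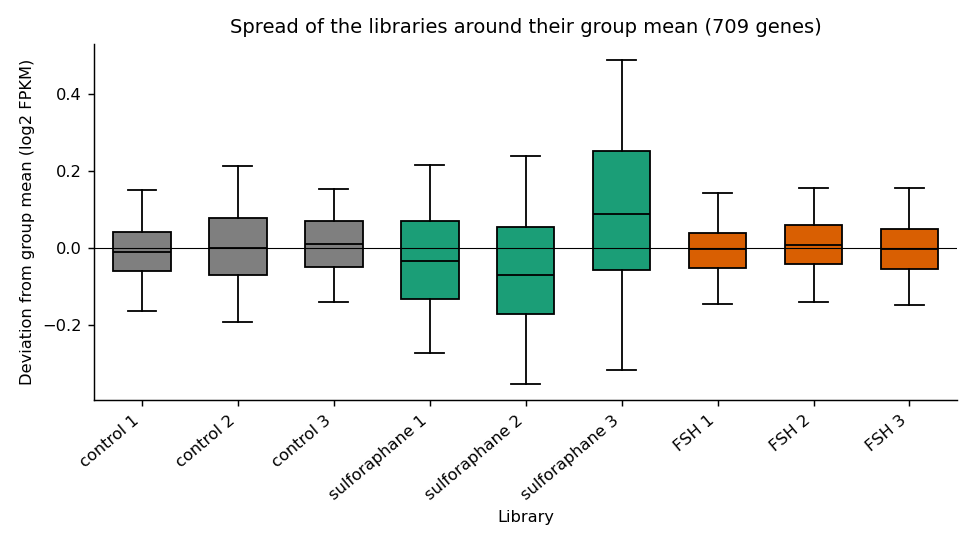
Deviation of each library from its group mean in log2 FPKM over 709 genes; boxes span the quartiles with the median as a line, and whiskers reach the 5th and 95th percentiles. The box of sulforaphane replicate 3 is the widest and lies furthest from 0, and the FSH boxes are narrow.

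The NRF2 targets were the list with the highest median. Of 11 tested members of 52 listed, 9 were higher with sulforaphane than with FSH and none was lower, against 12.9% and 42.8% over all tested genes. The median log2 fold change was 2.89 against -0.18 over all tested genes. The count and the median include SLC7A11, which passed the filter only through sulforaphane, so its direction follows in part from its entry. The 2 members not called were GSTA1 and GSTA4, both glutathione transferases. The group covers haem breakdown, glutathione supply, peroxide repair and the reduction of quinones and other electrophiles.

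HMOX1 encodes haem oxygenase, which opens the haem ring to biliverdin, iron and carbon monoxide. Its level was 872, 987 and 456 FPKM in the 3 sulforaphane libraries, 46.2, 51.3 and 50.2 FPKM with FSH, and 95.2 to 110.6 FPKM in controls. All sulforaphane libraries lay above all others, and all FSH libraries lay below the controls. The difference between treatments was 15.7-fold (log2 fold change 3.97 ± 0.234 SE, edgeR adjusted p = 1.92e-08), and 4.24 on the log2 scale without sulforaphane replicate 3. BLVRB, which reduces biliverdin, was at 141 ± 9.90 FPKM with sulforaphane and 33.6 ± 0.777 FPKM with FSH (SD, n = 3 each), and at 45.5 ± 2.44 FPKM in controls.

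The glutathione supply genes were several-fold apart. GCLC, the catalytic subunit of the enzyme that joins glutamate to cysteine (chromosome 7, 27209565 to 27253535, Sscrofa11.1), was at 373, 375 and 459 FPKM with sulforaphane and at 47.1, 47.4 and 46.7 FPKM with FSH. Controls held 35.6 ± 0.963 FPKM (SD, n = 3), below every FSH library. The ratio of sulforaphane to FSH was 8.54 (log2 3.09 ± 0.0913 SE, edgeR adjusted p = 5.10e-11). SLC7A11, the cystine importer, was at 4.51, 5.31 and 8.02 FPKM with sulforaphane and at 0.56, 0.71 and 0.63 FPKM with FSH, a 9.37-fold difference (edgeR adjusted p = 3.18e-08). Since SLC7A11 passed the filter on low values only through its sulforaphane libraries, that it differed follows in part from how it entered the test.

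SRXN1, the sulfiredoxin that repairs overoxidised peroxiredoxins, had the smallest standard error of the group. It was at 264, 261 and 268 FPKM with sulforaphane, 30.7, 32.8 and 31.5 FPKM with FSH, and 23.8 ± 0.664 FPKM in controls (SD, n = 3). The libraries of the treatments were separated by 8.35-fold (log2 3.06 ± 0.0752 SE, edgeR adjusted p = 7.58e-12).

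NQO1, a quinone reductase (chromosome 6, 17292962 to 17302593), was at 87.8, 84.7 and 126 FPKM with sulforaphane and at 13.3, 14.6 and 12.4 FPKM with FSH. The control level was 3.73 ± 0.457 FPKM (SD, n = 3), so the FSH libraries also lay above all controls. Its log2 fold change was 2.89 ± 0.155 SE between the treatments, 4.73 between sulforaphane and control, and 1.84 between FSH and control, and both comparisons with control use the same control libraries. PIR, an iron-binding nuclear protein, EPHX1, an epoxide hydrolase, and PTGR1, a reductase of lipid-derived electrophiles, were higher with sulforaphane by 9.14-, 5.60- and 2.81-fold. The counts of EPHX1 are not whole, which is called partly divided reads here, and its level is uncertain. How the reads of such genes were assigned is not stated.

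Neither glutathione transferase passed the test at the recovered depth. GSTA4, which conjugates the lipid peroxidation product hydroxynonenal, was at 72.3, 75.6 and 113 FPKM with sulforaphane and at 85.8, 86.7 and 80.2 FPKM with FSH. These libraries overlapped, and all 6 lay above the control range of 34.1 to 41.5 FPKM. Its log2 fold change between treatments was 0.04, with a 95% interval from -0.28 to 0.37. Without sulforaphane replicate 3 it was called lower, at -0.19 (edgeR adjusted p = 0.0416). GSTA1, which also has partly divided reads, was at 26.1 ± 6.63 FPKM with sulforaphane, 21.3 ± 2.70 FPKM with FSH and 3.32 ± 0.589 FPKM in controls (SD, n = 3 each), and its interval ran from -0.08 to 0.67. Both were called higher under TMM and median-ratio factors.

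Of 7 tested genes of haem and iron handling, 4 were higher and 2 lower with sulforaphane, against 12.9% and 42.8% over all tested genes. Besides HMOX1 and BLVRB, counted among the NRF2 targets, these were SLC40A1, the iron exporter ferroportin, at 470 ± 149 against 203 ± 3.28 FPKM, and TFRC, the transferrin receptor, at 84.1 ± 7.17 against 64.6 ± 4.57 FPKM. HP, haptoglobin, which binds free haemoglobin, went the other way, with 1.90, 2.16 and 1.46 FPKM with sulforaphane and 13.96, 18.3 and 14.7 FPKM with FSH. The controls held 1.14 ± 0.103 FPKM of HP, and the treatments differed 8.42-fold (edgeR adjusted p = 1.02e-08). PPOX, an enzyme of haem synthesis with partly divided reads, was also lower with sulforaphane, with a log2 fold change of -0.83.

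Stress response genes outside the NRF2 list were mixed. ZFAND2A, a zinc-finger protein of the proteasome that arsenite induces, was at 129, 150 and 104 FPKM with sulforaphane, 11.1, 11.2 and 12.3 FPKM with FSH and 8.26 ± 0.384 FPKM in controls. The treated libraries did not overlap, and the difference was 11.1-fold (log2 3.47 ± 0.133 SE, edgeR adjusted p = 4.40e-10). It was 1 of 2 genes called higher among 5 tested small heat shock proteins and chaperones, against 12.9% over all tested genes. The other was HSPB3, at 3.73 ± 1.11 against 1.90 ± 0.169 FPKM, while HSPB7 was lower, at 0.38 ± 0.0755 against 1.01 ± 0.161 FPKM. Both had stood higher in controls, at 7.21 and 2.95 FPKM.

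In the unfolded protein and integrated stress response list 5 of 10 tested genes were higher and 1 was lower, against 12.9% and 42.8% over all tested genes. The higher genes serve amino acid supply and include SLC7A11 of the NRF2 list, which passed the filter only through sulforaphane, while CBS, of cysteine synthesis, and SLC7A5, an amino acid carrier, were not called. CTH, which makes cysteine from cystathionine, was at 17.3 ± 3.82 FPKM with sulforaphane and 7.38 ± 0.870 FPKM with FSH, a 2.35-fold difference (edgeR adjusted p = 1.48e-05). PSAT1, of serine synthesis, and ASNS, asparagine synthetase, were 1.81- and 1.60-fold higher, and SLC1A4, a neutral amino acid carrier, had a log2 fold change of 0.42. DDIT4, an inhibitor of the kinase complex mTORC1, was lower at 99.5 ± 4.52 against 132 ± 11.7 FPKM, a call lost under each of the other 3 scalings. Leaving out 1 library at a time gave between 1 and 4 lower genes in this list, the most of them without sulforaphane replicate 3.

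The other genes with the largest differences on the sulforaphane side have unlike roles. IRAK2, a kinase of interleukin-1 and Toll-like receptor signalling, was at 14.3, 16.9 and 15.9 FPKM with sulforaphane and at 1.40, 1.23 and 1.55 FPKM with FSH. Its controls lay between 2.01 and 2.46 FPKM, above the FSH libraries, and the treatments differed 11.2-fold (edgeR adjusted p = 3.98e-10). CREG1, a lysosomal glycoprotein, was at 243 ± 60.5 FPKM with sulforaphane, 43.6 ± 1.31 FPKM with FSH and 96.4 ± 5.58 FPKM in controls. RASGEF1B, an exchange factor for Ras-family proteins, was 4.39-fold higher with sulforaphane. PRKG2, a cyclic GMP-dependent kinase that passed the filter only through sulforaphane, rested in size on 1 library, at 2.0, 1.75 and 4.79 FPKM against 0.66, 0.78 and 0.55 FPKM, and its log2 fold change of 2.12 ranged from 1.53 to 2.38 when 1 library was left out.

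**Figure D4:**
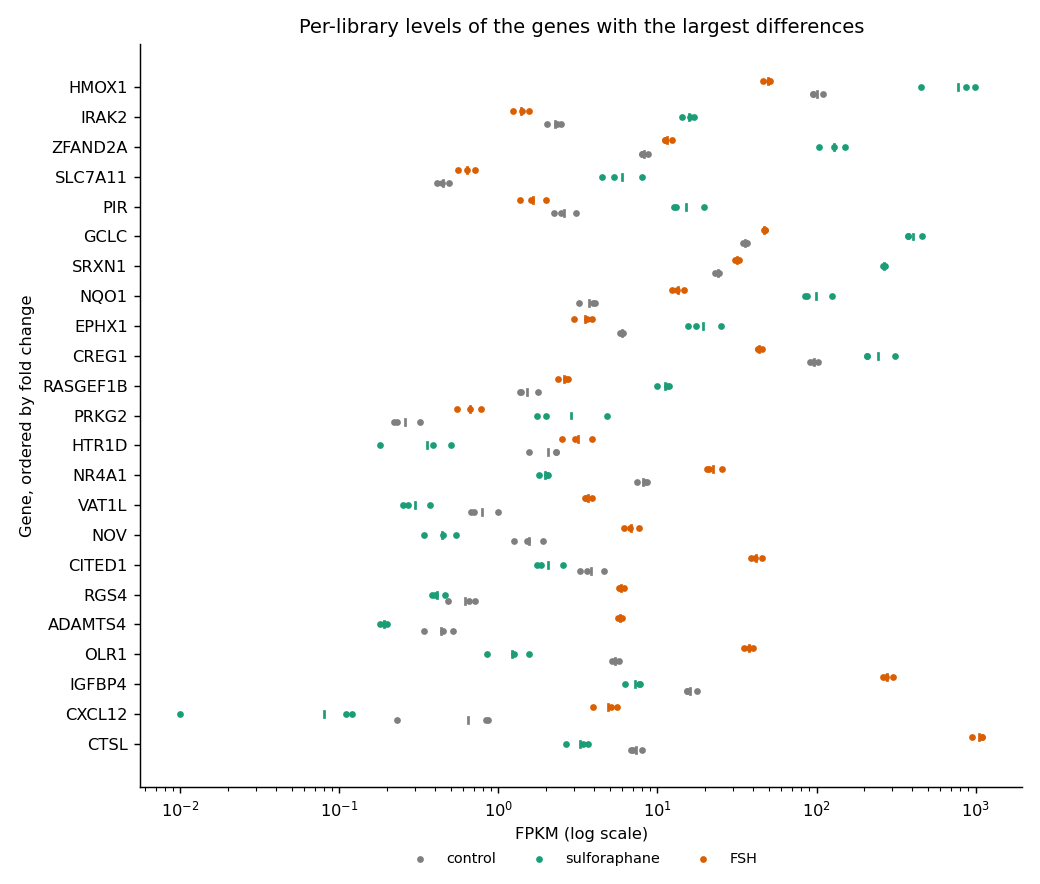
FPKM in each library (points, log axis) and the mean of 3 libraries (vertical ticks) for genes with the largest differences between sulforaphane and FSH in each direction, with control in grey, sulforaphane in green and FSH in orange. In every gene shown the green and orange points are apart, by construction of the rule that chose them, and the grey points lie on either side or between them.

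Most FSH and cAMP response genes lay on the other side. Of 17 tested members of 52 listed, 11 were lower with sulforaphane than with FSH, 2 were higher and 4 were not called, against 42.8% lower and 12.9% higher over all tested genes, and the median log2 fold change was -1.50. The lower members include proteases, binding proteins, receptors and transcription factors. RGS4, counted among them, passed the filter only through FSH, so its direction follows in part from its entry. Median-ratio factors gave 5 higher and 10 lower.

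CTSL, the lysosomal protease cathepsin L (chromosome 10, 27668523 to 27674705), showed the largest difference of all tested genes. It was at 3.40, 2.65 and 3.67 FPKM with sulforaphane and at 1099, 1103 and 956 FPKM with FSH, while controls held 7.97, 7.0 and 6.86 FPKM. Every sulforaphane library lay below every control, and every FSH library far above. The treatments were 325-fold apart (log2 -8.34 ± 0.140 SE, 95% interval -8.65 to -8.04, edgeR adjusted p = 2.28e-13), and the log2 fold changes against the shared controls were -1.17 for sulforaphane and 7.18 for FSH.

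IGFBP4, which binds and sequesters insulin-like growth factors in the follicle (chromosome 12, 21966524 to 21980043), was at 7.81, 7.68 and 6.25 FPKM with sulforaphane and 275, 302 and 261 FPKM with FSH. Controls were in between, at 15.3 to 17.6 FPKM. The difference was 38.4-fold (log2 -5.26 ± 0.123 SE, edgeR adjusted p = 6.45e-12). RGS4, which speeds the shut-off of G protein signals, was at 0.38, 0.40 and 0.46 FPKM against 6.19, 5.78 and 5.69 FPKM, 20.2-fold apart. It passed the filter only through FSH, so that it differed follows in part from its entry.

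NR4A1, an orphan nuclear receptor that gonadotropins induce early, was at 2.06, 1.79 and 2.02 FPKM with sulforaphane, 20.97, 25.3 and 20.6 FPKM with FSH and 7.43 to 8.59 FPKM in controls. The 3 groups did not overlap, and the treatments differed 11.4-fold (log2 -3.51 ± 0.127 SE, edgeR adjusted p = 3.36e-10). This row is an assembled locus that the file itself names. JUNB, a subunit of the AP-1 transcription factor, was at 7.64 ± 1.70 FPKM with sulforaphane and 21.4 ± 0.757 FPKM with FSH.

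Receptors of the luteinising follicle followed the same direction. LHCGR, the receptor of luteinising hormone, was at 0.96, 0.87 and 1.13 FPKM with sulforaphane and 3.46, 4.08 and 3.23 FPKM with FSH, with controls at 2.04 ± 0.153 FPKM. PTGFR, the prostaglandin F receptor, was at 12.7 ± 3.84 against 39.7 ± 5.07 FPKM. The differences were 3.52-fold for LHCGR (edgeR adjusted p = 4.83e-07) and 3.31-fold for PTGFR (edgeR adjusted p = 1.60e-06). INHBA, the subunit shared by activin A and inhibin A, an assembled locus with partly divided reads, was 4.56-fold lower with sulforaphane. FST, the activin-binding follistatin, was 1.45-fold lower, a call lost with median-ratio factors (edgeR adjusted p = 0.128), and both treatments lay above the control mean of 19.8 FPKM, at 34.6 ± 7.04 and 50.2 ± 2.02 FPKM.

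Not every gonadotropin-responsive gene separated the treatments. GJA1, the gap junction protein connexin-43 that couples granulosa cells, was at 598, 652 and 498 FPKM with sulforaphane and 622, 617 and 599 FPKM with FSH, against 323 ± 2.50 FPKM in controls. The treated libraries overlapped, and the log2 fold change was -0.07 with a 95% interval from -0.26 to 0.11, and without sulforaphane replicate 3 it was 0.03. ADAMTS1, a protease of the ovulatory follicle with partly divided reads, was higher with sulforaphane, at 57.2, 57.5 and 41.0 FPKM against 20.2, 19.2 and 21.3 FPKM with FSH. VEGFA, the other member called higher, was 1.34-fold higher, and without FSH replicate 2 its adjusted p was 0.0562 by edgeR. Without sulforaphane replicate 1 the FSH and cAMP list also held only 1 member called higher.

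All 4 tested steroidogenesis genes of 30 listed were lower with sulforaphane than with FSH, with a median log2 fold change of -1.95. Over all tested genes 42.8% were lower and the median was -0.18. CYP11A1, which cuts the side chain of cholesterol to make pregnenolone (chromosome 7, 59172829 to 59188479), was at 73.99 to 136 FPKM in the sulforaphane libraries (mean 103 ± 31.3, SD, n = 3), 540, 607 and 527 FPKM with FSH, and 137 to 163 FPKM in controls. The FSH libraries stood far above both other groups, and the highest sulforaphane library lay just under the lowest control. The treatments differed 5.39-fold (log2 -2.43 ± 0.175 SE, edgeR adjusted p = 1.04e-07). FDXR, the reductase that supplies electrons to CYP11A1, was at 8.58 ± 0.666 against 28.0 ± 1.26 FPKM.

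The remaining pair belong to the same family of dehydrogenases. HSD17B1, which makes oestradiol from oestrone, was at 2.18, 0.93 and 1.16 FPKM with sulforaphane and 4.88, 6.0 and 5.39 FPKM with FSH. HSD17B7, which acts on oestrone and in cholesterol synthesis, was at 4.31, 3.95 and 4.65 FPKM against 17.6, 17.4 and 17.2 FPKM. The libraries of the treatments were apart for both, by 3.80-fold (edgeR adjusted p = 1.72e-05) and 3.94-fold (edgeR adjusted p = 2.13e-08), with controls between them at 2.90 ± 0.203 and 8.53 ± 0.569 FPKM.

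Cholesterol synthesis and uptake genes lay close together apart from HSD17B7. Of 11 tested, 5 were lower and none higher, the median log2 fold change was -0.20, close to the 42.8% lower and -0.18 over all tested genes, and TMM factors gave 3 higher and 1 lower. SQLE, squalene epoxidase, was at 2.84 ± 0.467 against 4.15 ± 0.429 FPKM, a call lost with TMM factors (edgeR adjusted p = 0.119) and median-ratio factors (edgeR adjusted p = 0.258). The lower members numbered 3 without any 1 of the FSH libraries and 7 without sulforaphane replicate 3.

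Of 15 tested parts of cAMP, G protein and protein kinase signalling, 8 were lower with sulforaphane, 3 were higher, and the median was -0.99, while 42.8% of all tested genes were lower and 12.9% higher. The higher members numbered 5 with TMM factors and 6 with median-ratio factors. RGS4 and PRKG2, counted here, each passed the filter only through the treatment in which they were higher. The receptors S1PR1 and S1PR3 of sphingosine-1-phosphate were 4.61- and 3.55-fold lower, at 1.43 ± 0.391 against 6.57 ± 0.434 FPKM and 0.887 ± 0.121 against 3.15 ± 0.131 FPKM. The phosphodiesterases, which break down cyclic nucleotides, were split. PDE3B was lower at 0.54, 0.47 and 0.62 against 1.81, 2.01 and 1.97 FPKM, while PDE1B was higher at 3.42, 3.53 and 3.29 against 1.81, 1.46 and 1.93 FPKM. PDE8B was also higher, 1.96-fold (edgeR adjusted p = 0.000139). Reads of PDE8B and S1PR3 were partly divided. PRKACB, a catalytic subunit of protein kinase A, had a log2 fold change of 0.01, and AGTR1, an angiotensin receptor, was at 6.29 ± 1.17 and 6.51 ± 0.261 FPKM under the treatments against 25.7 ± 2.45 FPKM in controls.

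Among 8 tested follicular matrix and protease genes 5 were lower with sulforaphane and 1, ADAMTS1, was higher, while 42.8% of all tested genes were lower. TMM and median-ratio factors each gave 3 higher and 5 lower. ADAMTS4, which cleaves aggrecan and versican, was at 0.20, 0.19 and 0.18 FPKM with sulforaphane and 5.62, 5.94 and 5.77 FPKM with FSH, 30.0-fold apart. It passed the filter only through FSH, so its place among the lower genes follows in part from that entry. VCAN, the proteoglycan versican, was at 37.97, 36.5 and 47.3 against 149, 147 and 154 FPKM. PTX3, which stabilises the matrix of the cumulus, and PLAT, tissue plasminogen activator, were 2.83- and 2.64-fold lower. Controls lay between the treatments for VCAN, PTX3 and PLAT, with means of 81.5, 5.28 and 114 FPKM.

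Of 15 tested collagens and matrix proteins 12 were lower with sulforaphane, against 42.8% of all tested genes, none was higher, and the median was -0.87. NID2, a basement membrane nidogen, was at 4.93, 5.61 and 4.08 FPKM with sulforaphane and 21.7, 21.8 and 22.7 FPKM with FSH, and COL12A1, a fibril-associated collagen, was at 40.1, 36.9 and 48.8 against 142, 134 and 140 FPKM. The libraries did not overlap, and the differences were 4.53-fold (edgeR adjusted p = 8.08e-09) and 3.25-fold (edgeR adjusted p = 3.39e-08). SPP1, osteopontin, was at 3.85 ± 0.911 FPKM with sulforaphane and 15.1 ± 1.17 FPKM with FSH, both above the controls at 1.65 ± 0.171 FPKM. COL1A1, of type I collagen, was at 31.7 ± 2.70 against 47.0 ± 1.05 FPKM, and both lay below its controls at 71.4 ± 3.61 FPKM. With TMM factors 10 members were lower and none higher, and the call for COL1A1 was lost with median-ratio factors (edgeR adjusted p = 0.0728).

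Of 13 tested smooth muscle contractile genes 7 were lower and none higher, not far from the 42.8% lower over all tested genes. TMM factors gave 4 in each direction, and without sulforaphane replicate 2 there were 3 higher and 7 lower. CNN1, calponin, was at 47.7, 45.9 and 37.0 FPKM with sulforaphane and 155, 151 and 140 FPKM with FSH, a 3.42-fold difference (edgeR adjusted p = 1.65e-08). MYOCD, the coactivator of serum response factor, was at 0.71 ± 0.155 against 3.17 ± 0.0635 FPKM. ACTA2, smooth muscle actin with partly divided reads, differed only 1.24-fold, at 2381 ± 108 against 2937 ± 27.6 FPKM, with controls at 7303 ± 147 FPKM, and was not called under any of the other 3 scalings. MYH11, smooth muscle myosin, was not called, at 4.30 ± 0.735 and 3.82 ± 0.0306 FPKM, both under its controls at 22.5 ± 1.58 FPKM. The call for DES, desmin, was lost without FSH replicate 3 (edgeR adjusted p = 0.101).

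Cell cycle genes were lower with sulforaphane in 7 of 8 tested members (42.8% over all tested genes), with a median of -0.99, and TMM factors gave 6 lower and 1 higher. MCM2, MCM5 and MCM7 encode subunits of the helicase that unwinds DNA at replication origins. MCM2 was at 28.99, 32.9 and 18.0 FPKM with sulforaphane and 57.1, 59.5 and 57.8 FPKM with FSH, and MCM5 was at 46.4, 49.2 and 29.6 against 86.3, 90.9 and 88.5 FPKM. The treated libraries did not overlap, and sulforaphane replicate 3 was the lowest for both. Without it the log2 fold changes were -0.91 and -0.89, against -1.13 and -1.09 with all libraries. E2F1, a transcription factor of S-phase genes, was 1.93-fold lower, and CCND3, a D-type cyclin with partly divided reads, 2.19-fold lower. CCND1, another D-type cyclin, was higher, at 5.23 ± 1.09 against 4.09 ± 0.256 FPKM (edgeR adjusted p = 0.0434). Its call was lost when any 1 library other than sulforaphane replicate 3 was left out, and with a replicate block. Without sulforaphane replicate 2 its adjusted p was 0.203 (edgeR).

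Of 9 tested growth arrest and p53 target genes 4 were lower and 1 higher, close to the 42.8% and 12.9% over all tested genes. CDKN1C, an inhibitor of cyclin-dependent kinases, was at 0.56, 0.50 and 1.10 FPKM with sulforaphane and 3.74, 4.15 and 2.99 FPKM with FSH, 5.02-fold apart (edgeR adjusted p = 4.48e-06), with controls at 5.73 ± 0.822 FPKM. DDB2, of nucleotide excision repair, was 2.85-fold lower. PHLDA3, an inhibitor of the kinase AKT, was the member called higher, at 86.5 ± 6.99 against 46.6 ± 1.91 FPKM. TMM factors gave 4 higher and 3 lower.

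The TGF-beta, BMP and activin list had 5 of 10 tested members lower and 1 higher, near the 42.8% and 12.9% over all tested genes, and TMM factors gave 4 in each direction. SMAD9, a signal transducer of BMP receptors, was at 39.9, 40.3 and 51.6 FPKM with sulforaphane and 15.5, 17.3 and 16.6 FPKM with FSH, 2.67-fold apart (edgeR adjusted p = 2.97e-06). GDF6, a BMP-family ligand, and AMHR2, the receptor of anti-Müllerian hormone with partly divided reads, were lower at 1.12 ± 0.205 against 2.28 ± 0.414 FPKM and 0.553 ± 0.0473 against 1.10 ± 0.179 FPKM. Both stood higher in controls, with means of 11.1 and 2.57 FPKM.

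Chemokines and cytokines went in both directions, with 2 of 8 tested members higher and 4 lower, the latter near the 42.8% over all tested genes. TMM and median-ratio factors each gave 3 higher and 2 lower. CCL2, which attracts monocytes, was at 12.7, 13.1 and 11.3 FPKM with sulforaphane and 4.38, 5.35 and 4.22 FPKM with FSH. IL1RL1, the receptor of interleukin-33, was 3.08-fold higher with sulforaphane at 17.1 ± 2.78 against 5.55 ± 0.191 FPKM. Its ligand IL33, with partly divided reads, was 2.99-fold lower at 9.13 ± 2.94 against 27.0 ± 3.08 FPKM. CXCL12, a chemokine for cells bearing CXCR4, had 1 to 2 counts in each sulforaphane library and 49 to 79 with FSH. Its levels were 0.12, 0.01 and 0.11 against 5.56, 3.91 and 5.10 FPKM, and it passed the filter only through FSH. The fitted log2 fold change was -5.40, with a 95% interval from -6.26 to -4.54 that such low counts make dependent on the fit.

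Immediate-early transcription factors went in both directions, with 3 of 10 tested higher and 2 lower (12.9% and 42.8% over all tested genes), and with TMM factors 6 and 2. Without sulforaphane replicate 3 there were 2 higher and 5 lower, without sulforaphane replicate 2 there were 4 and 2, and leaving out any 1 FSH library gave 2 and 2. KLF5, a Krüppel-like factor, was at 3.15 ± 0.595 against 1.01 ± 0.235 FPKM, and FOSL1, an AP-1 subunit, was at 45.3 ± 11.1 against 26.0 ± 1.93 FPKM. The lower members were NR4A1 and JUNB. EGR1, MYC, FOSL2, MAFF and ATF3 were not called.

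Most glycolysis genes lay close between the treatments at the recovered depth. In the glycolysis list 2 of 8 tested genes were higher, PFKFB3 and the glucose transporter SLC2A1, and none was lower. Over all tested genes 12.9% were higher and 42.8% lower. SLC2A1 was at 155 ± 14 FPKM with sulforaphane and 107 ± 6.75 FPKM with FSH, and PFKFB3, which makes an activator of phosphofructokinase, was at 17.6 ± 4.73 against 9.46 ± 0.606 FPKM. ENO1, the glycolytic enzyme enolase, was at 3131, 3155 and 2723 against 2896, 2811 and 2834 FPKM, and controls held 1863 to 2095 FPKM. The treated libraries overlapped, and the log2 fold change of ENO1 was 0.08 with a 95% interval from -0.07 to 0.23, and it was called higher without sulforaphane replicate 3, at 0.14 (edgeR adjusted p = 0.0188). TMM factors gave 5 members higher, median-ratio factors 7, and the fit without sulforaphane replicate 3 gave 4.

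In the VEGF and hypoxia list 3 of 8 tested genes were higher and 1 lower, against 6 higher and none lower under each of the other 3 scalings. The higher members numbered 1 without FSH replicate 2 and 2 without sulforaphane replicate 2, and over all tested genes 12.9% were higher. VEGFC, a growth factor of lymphatic vessels, was at 62.0, 70.3 and 67.5 FPKM with sulforaphane and 31.8, 31.8 and 35 FPKM with FSH, 2.03-fold apart (edgeR adjusted p = 2.25e-07). VEGFA was at 80.4, 88.3 and 52.1 against 53.5, 52.3 and 57.7 FPKM. Its sulforaphane replicate 3 fell below all FSH libraries, while all 6 treated libraries were above the controls at 19.6 ± 1.09 FPKM.

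The remaining lists were small or divided. Among 39 tested genes listed by symbol as ion channels and solute carriers, 11 were higher and 10 lower, with a median of -0.10. Over all tested genes 12.9% were higher and 42.8% lower. The list holds SLC2A4RG, called lower, and TRPS1, not called, by their symbols and not by function. Among the higher was SLC7A11, which passed the filter only through sulforaphane, and a lower member passed it only through FSH. The direction of these members follows in part from their entry. TMM factors gave 16 higher and 8 lower, median-ratio factors 18 and 8, and the fit without sulforaphane replicate 3 gave 13 and 14. SLC6A4, the serotonin transporter, was at 0.473 ± 0.0764 FPKM with sulforaphane and 4.18 ± 0.553 FPKM with FSH, 9.12-fold apart (edgeR adjusted p = 1.02e-08). KCNA5, a voltage-gated potassium channel that passed the filter only through control, had 0 to 2 counts per sulforaphane library and 37 to 55 with FSH. Of 7 IGF and growth factor genes 3 were higher and 2 lower, against 12.9% and 42.8% over all tested genes. TMM factors gave 4 and 1. Without FSH replicate 1, FSH replicate 2 or sulforaphane replicate 2 there were 2 higher. PDGFRB, a receptor of platelet-derived growth factor, was higher, at 13.1 ± 2.05 against 6.55 ± 0.329 FPKM. PPARG, a lipid-sensing nuclear receptor, was 2.15-fold higher and CPT1B, which carries fatty acids into mitochondria, 2.95-fold lower. The third member of that fatty acid list, ACSL4, was lower, and its call was lost without FSH replicate 2 (edgeR adjusted p = 0.0540) and under each of the other 3 scalings.

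Both tested keratins were lower, while 42.8% of all tested genes were lower. KRT8 was at 40.02 ± 3.12 with sulforaphane against 86.3 ± 2.83 FPKM with FSH, and the call for KRT7, an assembled locus at 3.16 ± 0.496 against 4.63 ± 0.542 FPKM, was lost under each of the other 3 scalings. Of 3 interferon-response genes BST2, a tetherin that retains viruses at the cell surface, was lower, at 2.81 ± 0.640 against 5.26 ± 1.02 FPKM, a call lost with median-ratio factors (edgeR adjusted p = 0.0525). DDX60, a helicase of antiviral sensing, was at 0.82, 0.64 and 1.72 against 1.51, 1.65 and 1.36 FPKM and was not called with all libraries (edgeR adjusted p = 0.136). Without sulforaphane replicate 3 it was called, with a log2 fold change of -1.05 (edgeR adjusted p = 8.11e-07).

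**Figure D5:**
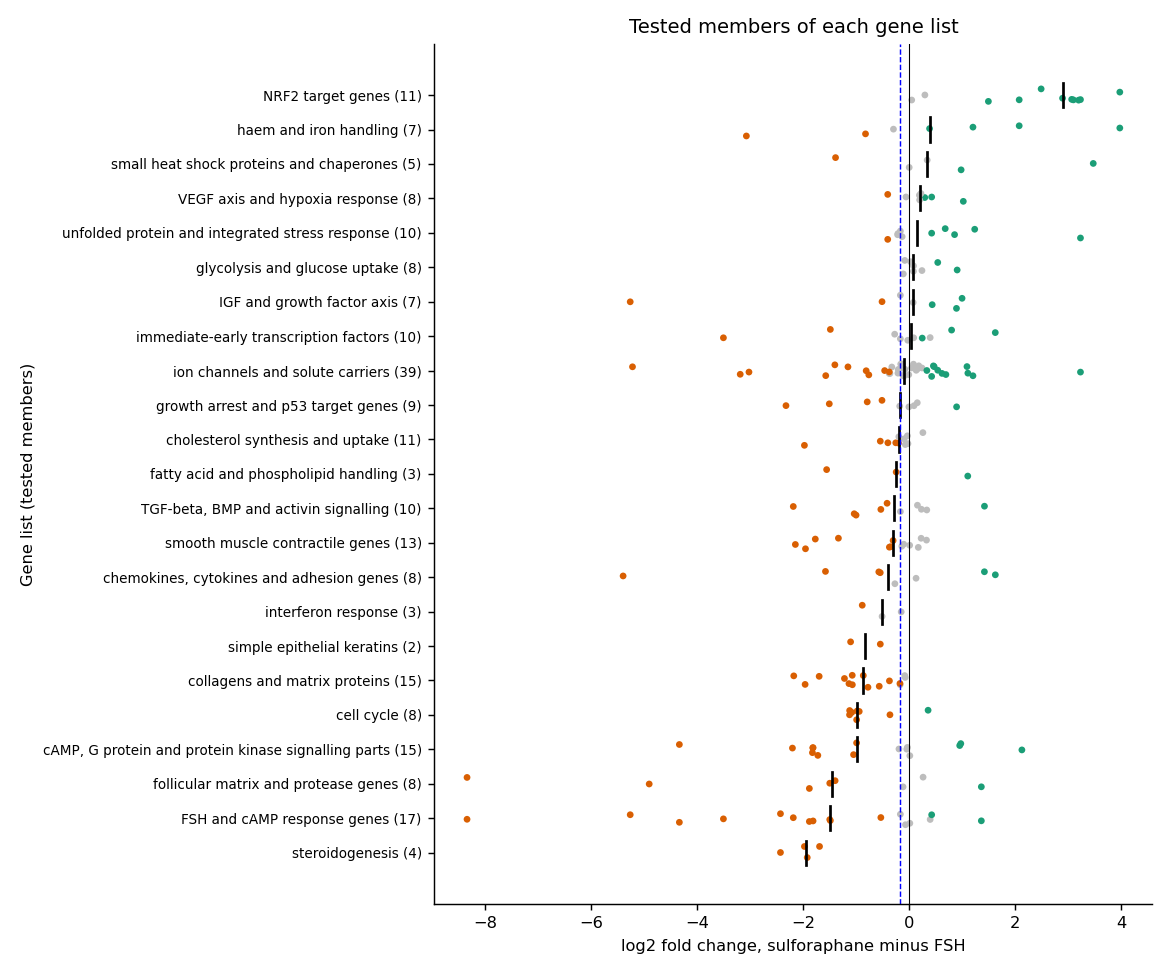
Log2 fold change of sulforaphane over FSH for each tested member of 23 gene lists (points; green called higher, orange called lower, grey not called), with the list median as a black tick and the median of all tested genes as a dashed line. The NRF2 target median of 2.89 is the highest and the steroidogenesis median of -1.95 the lowest.

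Other genes with the largest differences on the FSH side were outside these gene lists. OLR1, a receptor for oxidised low-density lipoprotein, was at 1.25, 0.85 and 1.55 FPKM with sulforaphane and 34.96, 40.04 and 37.4 FPKM with FSH, with controls at 5.16 to 5.74 FPKM. CITED1, a transcriptional coactivator, was at 1.74, 1.84 and 2.55 against 41.2, 45.3 and 38.7 FPKM. In both, all 3 groups were apart, and the treatments differed 30.8-fold (edgeR adjusted p = 1.30e-10) and 20.2-fold (edgeR adjusted p = 4.21e-10). NOV, a matricellular protein, HTR1D, a serotonin receptor, and VAT1L, with partly divided reads, were 15.2-, 10.9- and 12.4-fold lower with sulforaphane.

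Of the 407 genes not called at the recovered depth, 315 had a 95% interval of the fold change that lay within 1.5-fold in either direction. GSN, the actin-severing protein gelsolin, an assembled locus with partly divided reads, was at 227, 218 and 228 FPKM with sulforaphane, 234, 219 and 229 FPKM with FSH, and 435 ± 21.0 FPKM in controls. The treated libraries overlapped, and its interval ran from -0.17 to 0.13. TEX264, a receptor for autophagy of the endoplasmic reticulum, was at 31.8, 32.7 and 31.8 against 33.5, 33.2 and 31.4 FPKM, with controls at 21.8 ± 1.15 FPKM. ANXA6, a membrane-binding annexin, was at 185 ± 5.47 and 178 ± 3.91 FPKM, with an interval from -0.09 to 0.19. Under TMM factors GSN and TEX264 were called higher, each with a log2 fold change of 0.28, as was ANXA6, while with column sums GSN (edgeR adjusted p = 0.0540) and TEX264 (edgeR adjusted p = 0.0987) were not called. All 8 genes chosen for the most similar levels were called higher under both TMM and median-ratio factors.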

How the data were processed

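RNA was measured in 9 libraries (3 each of control, sulforaphane and FSH). The deposited table gives FPKM and, per the file headers, counts, which are estimated counts since 143 of 1081 rows hold values that are not whole (tolerance 1e-06). Per the submitters' processing notes the build was Sscrofa11.1, and StringTie 1.3.1, HISAT2, Bowtie2 2.2.8 and fastp were used, beside edgeR and DESeq2, with no roles given. Identifiers were matched to a RefSeq gene table of that build (1053 of 1053; 28 rows were assembled loci). Columns of other series numbered 0.

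Estimated counts were rounded. Library depths, 16.6 to 22.3 in units of 1e6 fragments, were recovered from the ratio of counts to FPKM over 354 genes, and set absolutely by 10 of 346 genes at a common maximum of that ratio to gene span. All 9 libraries entered 1 fit of 3 group means in edgeR 4.0.16 (R 4.3.3; quasi-likelihood test, Benjamini-Hochberg, threshold 0.05) over genes with at least 1 FPKM in 3 libraries. The common dispersion was 0.0118. The procedure was tested on simulated data. An exact two-sided permutation test of 3 against 3 libraries cannot give a p under 0.1, so none is given.

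The members, the 23 gene lists, the markers and the rule for named genes were chosen with earlier results of these data known. Named genes are the 12 highest and 12 lowest called genes with a symbol, a mean of at least 1 FPKM over the treated libraries and no overlap between treatments, the 2 members of each list with the smallest adjusted p, always NQO1, HMOX1, CYP11A1 and CTSL, and the 8 uncalled genes of at least 10 FPKM with the most similar levels. Other genes named are further list members, picked after their values were seen. Alternatives were TMM, median-ratio and column-sum scaling, other filters, DESeq2 1.42.0, limma 3.58.1 on log2(FPKM + 1), 0.1 and 5, a replicate block, single libraries left out, rows with divided reads left out, and a 1.2-fold minimum. Promoter motifs were planned and are not analysed here. Results of some genes that these rules select are not reported here.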

Additional observations from a re-analysis of the deposited data

How the results depend on the processing

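Under 22 alternatives, all planned, 53 of 66 named genes kept their direction and their side of the threshold wherever they were tested. The filter at a mean of 5 FPKM held 50 of the 66, and leaving out rows with divided reads held 58. Most named genes were chosen for large differences or small adjusted p, so this stability follows in part from the rule. Genes called higher numbered 119 with the recovered depth, 320 with TMM factors, 388 with median-ratio factors and 226 with column sums. CHKA, GSN, HMG20B, SORBS3 and TEX264, which lay near 0, turned to log2 fold changes of 0.29, 0.28, 0.28, 0.30 and 0.28 with TMM factors and 0.37, 0.36, 0.36, 0.37 and 0.35 with median-ratio factors. By construction of a smaller table, a mean of at least 5 FPKM left 489 genes, of which 292 were called (79 higher, 213 lower, 152 at least 2-fold). The 300 genes called at 2-fold fell to 199 and 93 with limma on log2(FPKM + 1) and log2(FPKM + 5), whose pseudocounts shrink the folds of low genes. DESeq2 called 507 genes. Leaving out 1 library gave 470 to 593 called genes, 97 to 134 higher and 373 to 459 lower. Same-numbered sulforaphane and FSH libraries deviated together with correlations of 0.11, -0.069 and 0.0048, so the numbers were not taken as pairs, and a replicate block gave 505 called genes (112 higher, 393 lower). Genes with few counts, such as CXCL12, limit the precision of their folds.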

Other observations

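Several further genes with large differences fell outside the gene lists and were chosen after their values were seen. On the sulforaphane side LIPG, endothelial lipase, was at 71.5 ± 14.1 FPKM with sulforaphane and 17.9 ± 1.71 FPKM with FSH (SD, n = 3 each), with a control mean of 25.99 FPKM, and SEMA7A, a membrane-anchored semaphorin, was at 113 ± 13.6 against 49.7 ± 1.51 FPKM. SQOR, which oxidises hydrogen sulfide in mitochondria, was 2.46-fold higher. In each of these genes the treated libraries did not overlap, and all 3 were called under every scaling.

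On the FSH side SDC1, the heparan sulfate proteoglycan syndecan, was at 39.9 ± 7.14 FPKM with sulforaphane and 169 ± 4.21 FPKM with FSH. TSC22D3, a leucine zipper protein that glucocorticoids induce, was at 5.0 ± 1.02 against 22.2 ± 2.29 FPKM. Lower levels were seen for SOCS2, a suppressor of cytokine signalling, at 0.520 ± 0.392 against 4.29 ± 0.334 FPKM, for the Wnt antagonist SFRP1 at 0.360 ± 0.0700 against 2.95 ± 0.144 FPKM, and for SOX9, a transcription factor of gonad development, at 0.690 ± 0.406 against 3.60 ± 0.173 FPKM. All 5 were called lower with sulforaphane under every scaling, and their control means lay between the treatments.

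Of the pathways annotated in the deposited table, a pair chosen after their values were seen is given here, beside 42.8% lower and 12.9% higher over all tested genes. The insulin resistance set had 7 of 12 tested genes lower and 3 higher. TBC1D4, which restrains glucose transporter traffic, and SOCS3 had log2 fold changes of -2.36 and -1.31, and PRKAA2, a catalytic subunit of AMP-activated kinase with partly divided reads, had 1.06. In the set of neuroactive ligand and receptor genes 7 of 13 were lower and none higher, including OPRD1, the delta opioid receptor, at -0.59, a call lost with TMM factors (edgeR adjusted p = 0.0883) and median-ratio factors (edgeR adjusted p = 0.193), and ADORA1, an adenosine receptor with partly divided reads, at -0.99. These sets share members with the gene lists of the main text.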
